A study of Rattus norvegicus with 20 samples.

Results

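The blood and immune cell miRNAs comprise 5 mature microRNAs (miRNAs, small RNAs that silence matching messenger RNAs): rno-miR-223-3p, rno-miR-142-3p, rno-miR-146a-5p, rno-miR-150-5p and rno-miR-150-3p, written below without the prefix for rat. They were chosen by name, for their known abundance in white blood cells, but with earlier results of these data known. They are 5 of the 677 rat miRNAs on the array, and all 5 are among the 215 that were tested. The study measured miRNAs in male germ cells of Sprague-Dawley rats after a long course of cyclophosphamide, an alkylating anticancer and immunosuppressive drug, or of saline, each given by gavage on 6 days a week over 4 weeks. The drug dose was 6 mg/kg. Pachytene spermatocytes, which are in the prophase of meiosis, and round spermatids, which are haploid and come after meiosis, were separated by the STA-PUT method of sedimentation at unit gravity, which sorts cells mainly by size. Each of the 4 groups (saline pachytene, cyclophosphamide pachytene, saline spermatid and cyclophosphamide spermatid) has 5 one-colour arrays with a rat number each.

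miR-223 is the classic miRNA of granulocytes and monocytes, and it limits granulocyte activation. miR-142 comes from a hairpin transcribed in nearly all blood cell lineages, and miR-150 is abundant in mature B and T lymphocytes, where it restrains the transcription factor Myb. miR-146a is induced by NF-kappa B and damps the same pathway through the signalling proteins TRAF6 and IRAK1, and it is made by many cell types besides leukocytes. The testis holds resident macrophages and blood vessels between the tubules, outside the barrier behind which meiotic and later germ cells develop.

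The mature sequences are shown because the array reads each miRNA by a probe to it, and because the seed (bases 2 to 8, in capitals) sets a miRNA's main targets. RefSeq's rat miRNA table (build GRCr8) held 3 of the 5 members, and the miR-150 arms are named only. The last line is miR-146b-5p, no member, which shares its seed with miR-146a-5p. Sequences run 5′ to 3′.
miR-223-3p: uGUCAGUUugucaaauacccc
miR-142-3p: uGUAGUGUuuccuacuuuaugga
miR-146a-5p: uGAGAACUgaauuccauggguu
miR-146b-5p: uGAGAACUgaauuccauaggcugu
In that table the seeds of miR-223-3p and miR-142-3p each belonged to 1 mature miRNA, and that of miR-146a-5p to 2. Counted from 1 at the 5′ end, miR-146a-5p and miR-146b-5p differ by G18A and U21C over their shared length (miR-146a-5p first), and they are 22 and 24 bases long.

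All values are the array's background-subtracted spot signals, brought to a common scale between arrays and called scaled signals here. Tests and differences are on the log2 scale with a floor at a scaled signal of 12.17 (3.61 on the log2 scale), the typical lowest signal well above background, and signals under it have no order. Signals of different miRNAs are not set against each other, since probes differ in brightness. The arrays detected between 181 and 281 miRNAs each, and log2 values of arrays within a group correlated at 0.957 to 0.996 over the tested miRNAs. The arrays lie on 3 slides, of which slide 3 holds 4 spermatid arrays (3 saline and 1 cyclophosphamide) and no pachytene array. In RNA from whole cell fractions, fewer cells of a type and less RNA per cell cannot be told apart.

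Round spermatids held more miR-223-3p and more miR-146a-5p than pachytene spermatocytes in both treatments, and more miR-142-3p in cyclophosphamide, whereas neither arm of miR-150 passed the test in either treatment. None of the 5 passed the test of cyclophosphamide against saline in either cell type. For miR-146a-5p in pachytene spermatocytes, under the floor in both treatments, no drug difference could be read. In saline 2 members were higher in round spermatids at an adjusted p under 0.05 (limma, Benjamini-Hochberg over all 215 miRNAs), beside 26% of all tested miRNAs, and 0 were lower, beside 21.9%. In cyclophosphamide 3 were higher, beside 30.2%, and 0 lower, beside 23.3%. With so few members these shares do not set the members apart from the other miRNAs, and miR-146a-5p was tested only because its spermatid arrays were high enough to be detected. The members' median difference was 0.53 in saline and 0.76 in cyclophosphamide, where the medians over all tested miRNAs were 0.02 and 0.07. The arrays of the 2 cell types did not overlap for 2 members in saline, beside 34.9% of tested miRNAs, and for 3 in cyclophosphamide, beside 39.1%.

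**Figure D1:**
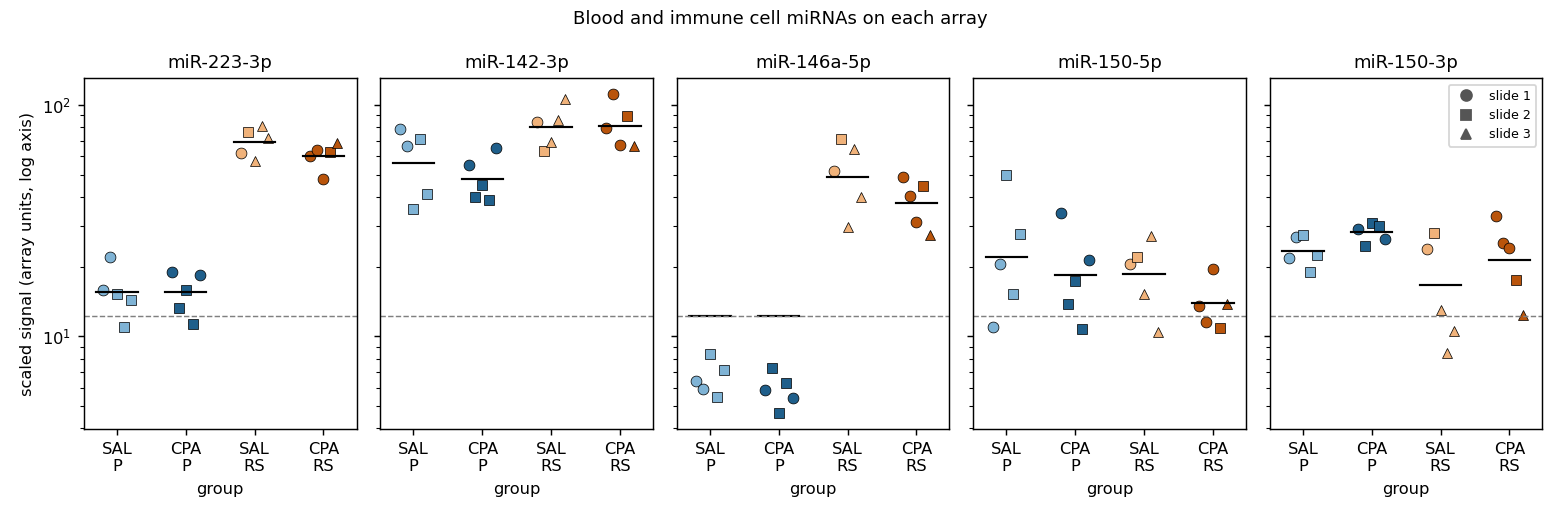
Scaled signal of each member on each array, on a log axis, for saline (SAL) and cyclophosphamide (CPA) pachytene spermatocytes (P) and round spermatids (RS). Points are single arrays, marked by slide, black bars are means of the floored log2 values over 5 arrays, and the dashed line is the floor of 12.17. The spermatid arrays of miR-223-3p and miR-146a-5p lie above every pachytene array, and the 4 slide 3 arrays are the lowest spermatid arrays of miR-150-3p.

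For miR-223-3p, the myeloid miRNA, the scaled signals in saline pachytene spermatocytes were 11.0, 14.4, 15.2, 15.8 and 21.9, and in cyclophosphamide pachytene spermatocytes 11.3, 13.2, 15.9, 18.4 and 18.9. In round spermatids they were 57.2, 61.8, 71.7, 76.4 and 81.4 with saline and 47.7, 60.2, 62.4, 64.0 and 68.5 with cyclophosphamide. The lowest spermatid array was thus above the highest pachytene array by a wide gap, and the treatments overlapped within each cell type. The miRNA was detected on all 20 arrays. On the log2 scale the pachytene means were 3.96 ± 0.31 (SD, n = 5) with saline and 3.95 ± 0.28 with cyclophosphamide, and the spermatid means 6.11 ± 0.21 and 5.91 ± 0.20. The difference between cell types was 2.15 ± 0.16 (SE), or 4.43-fold, in saline (limma adjusted p = 3.48e-09) and 1.96 ± 0.16, or 3.88-fold, in cyclophosphamide (limma adjusted p = 9.30e-09). Ordered by size, it was number 2 of the 215 tested miRNAs in saline and number 3 in cyclophosphamide. Its second probe gave 1.94 ± 0.17 and 1.73 ± 0.17. With normexp background correction, which adds an offset of 50 to each signal, the differences shrank to 1.17 ± 0.31 (limma adjusted p = 0.0115) and 0.53 ± 0.31, and the call in cyclophosphamide was lost (limma adjusted p = 0.347). Within slide 1, where 1 array stood for saline spermatids, the differences were 1.73 and 1.61, and within slide 2, where 1 spermatid array stood for each treatment, 2.46 and 2.19.

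For miR-146a-5p, the NF-kappa B target, every pachytene array lay under the floor. The scaled signals were 5.44, 5.89, 6.41, 7.16 and 8.42 with saline and 4.64, 5.41, 5.88, 6.26 and 7.26 with cyclophosphamide. It was called detected on 3 of the 5 saline and 2 of the 5 cyclophosphamide pachytene arrays, so that its pachytene level is a trace that the array barely measured. In round spermatids it was detected on all 10 arrays, at 29.6, 39.9, 51.9, 64.2 and 71.4 with saline and 27.3, 31.3, 40.3, 44.4 and 48.8 with cyclophosphamide. The cell types were therefore fully separate, and the treatments overlapped.

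Set against the floor, miR-146a-5p was 4.02-fold higher in round spermatids in saline (a log2 difference of 2.01 ± 0.19, 95% interval 1.61 to 2.40, limma adjusted p = 9.85e-08). In cyclophosphamide it was 3.08-fold higher (1.62 ± 0.19, 95% interval 1.23 to 2.02, limma adjusted p = 5.47e-07). The floor stands for all 10 pachytene values and lies above each of them, which makes these estimates smaller. It also leaves the pachytene groups with no spread of their own, which lowers the shared estimate of the spread in the fit. With the floor lowered to a scaled signal of 1.22, so that the pachytene arrays kept their measured values, the differences were 2.89 ± 0.21 and 2.69 ± 0.21. The dimmer second probe, also at the floor in every pachytene array, gave 1.19 ± 0.22 (limma adjusted p = 0.000116) and 0.78 ± 0.22 (limma adjusted p = 0.00584). With normexp they were 1.18 ± 0.34 (limma adjusted p = 0.0228) and, no longer called, 0.42 ± 0.34 (limma adjusted p = 0.639). Within slide 1 the differences were 2.09, with 1 saline spermatid array, and 1.70. Within slide 2 they were 2.55 and 1.87, with no test, since the pachytene arrays were all at the floor and 1 spermatid array stood for each treatment.

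miR-146b-5p, which shares the seed printed above, did not pass the test. It was detected on all 20 arrays, with scaled signals of 17.6 to 26.6 over the pachytene and 20.7 to 32.3 over the spermatid arrays. These ranges overlapped for most of their length. Its difference between cell types was 0.12 ± 0.14 in saline (limma adjusted p = 0.508) and 0.29 ± 0.14 in cyclophosphamide (limma adjusted p = 0.0952), and whether it differs from that of miR-146a-5p was not tested.

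For miR-142-3p, the miRNA of most blood lineages, saline pachytene arrays read 35.5, 41.2, 66.4, 71.3 and 78.6, and cyclophosphamide pachytene arrays 39.0, 40.1, 45.1, 55.1 and 65.4. Spermatid arrays read 62.9, 69.3, 84.2, 86.2 and 106.2 with saline and 66.4, 67.0, 79.8, 89.1 and 111.0 with cyclophosphamide. The cell types overlapped in saline, where 3 pachytene arrays reached the spermatid range, and lay just apart in cyclophosphamide. The pachytene log2 means were 5.80 ± 0.51 and 5.58 ± 0.32, and the spermatid means 6.33 ± 0.29 and 6.34 ± 0.31, saline before cyclophosphamide (SD, n = 5).

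In saline the difference of miR-142-3p was 0.53 ± 0.22 (limma adjusted p = 0.0583), and in cyclophosphamide 0.76 ± 0.22, or 1.69-fold (limma adjusted p = 0.00772). The test of the difference between these 2 effects gave 0.23 ± 0.31 (limma adjusted p = 0.993), so the treatments were not shown to differ in it. The saline value moved across the threshold with the choices made: it was 0.50 ± 0.20 with the second probe (limma adjusted p = 0.0488), and it passed without saline pachytene rat 13, 16 or 26 or saline spermatid rat 16. The cyclophosphamide call was lost with the 75th percentile over all probes (0.55, limma adjusted p = 0.0576), with no scaling (0.35), with normexp background correction (0.32) and within slide 1 (0.49, limma adjusted p = 0.128).

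The other arm of the same hairpin, miR-142-5p, was detected on 12 of the 20 arrays but on all 5 arrays of no group, and so was not tested. It read 3.95 to 10.6 over the 10 pachytene arrays and 7.17 to 25.9 over the 10 spermatid arrays, which overlapped, and all 10 pachytene arrays were under the floor. Its highest spermatid signals were on saline rat 28 (25.9) and cyclophosphamide rat 15 (22.0), the same arrays on which miR-142-3p was highest in each treatment.

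**Figure D2:**
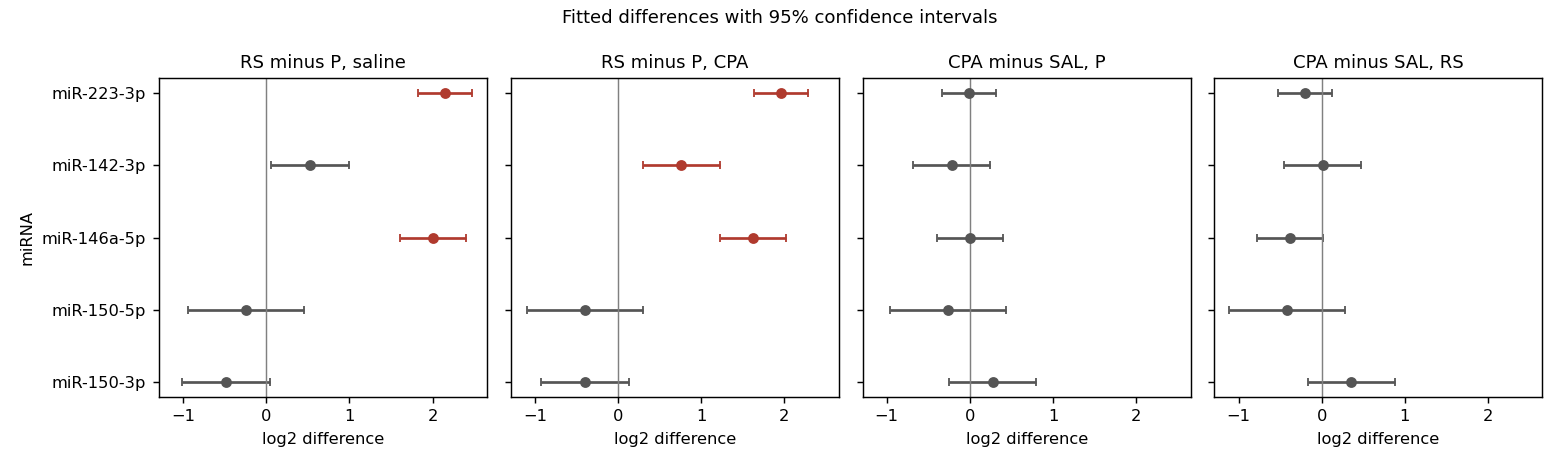
Fitted log2 differences of the 5 members with 95% confidence intervals, for round spermatids (RS) minus pachytene spermatocytes (P) in each treatment and for cyclophosphamide (CPA) minus saline (SAL) in each cell type. Red marks an adjusted p under 0.05 (limma, over 215 miRNAs), which 2 members reached between cell types in saline, 3 in cyclophosphamide and none for the drug.

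For miR-150-5p, the lymphocyte miRNA, the arrays varied more within groups than the groups differed. Saline pachytene arrays read 11.0, 15.2, 20.6, 27.6 and 49.5, and cyclophosphamide pachytene arrays 10.8, 13.7, 17.4, 21.3 and 34.1. Spermatid arrays read 10.4, 15.3, 20.5, 21.9 and 27 with saline and 10.9, 11.5, 13.5, 13.7 and 19.5 with cyclophosphamide. All 4 groups overlapped, and the highest single array was saline pachytene rat 25. The pachytene log2 means were 4.46 ± 0.79 and 4.20 ± 0.59, and the spermatid means 4.22 ± 0.45 and 3.81 ± 0.28, saline before cyclophosphamide (SD, n = 5). The differences between cell types were -0.24 ± 0.33 in saline (limma adjusted p = 0.576) and -0.40 ± 0.33 in cyclophosphamide (limma adjusted p = 0.319). The sign in saline rested on saline pachytene rat 25: without it the difference was 0.05, and leaving out any 1 array gave -0.46 to 0.05. Its second probe was at or near the floor throughout and carries no independent reading.

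The pattern of miR-150-5p over single arrays was closest to that of miR-126a-3p, a miRNA abundant in endothelium. Pearson's r between the 2 was 0.89 over the 20 arrays and 0.95 after each group's mean was taken out, as a description over arrays that share slides and scaling. miR-126a-3p read 64.8 to 251.0 over the saline pachytene arrays, 74.1 to 180.0 over the cyclophosphamide pachytene arrays, 48.7 to 106.0 over the saline spermatid arrays and 43.8 to 71.8 over the cyclophosphamide spermatid arrays. The pachytene arrays that were highest for miR-150-5p, saline rat 25 and cyclophosphamide rat 15, were also highest for miR-126a-3p. The next most alike were miR-126a-5p, from the same hairpin and with every spermatid array under the floor, at r = 0.75, and miR-106b-3p at r = 0.53. Both values rest on few arrays. miR-126a-5p was above the floor only on saline pachytene rats 25 (34.3) and 28 (16.9) and cyclophosphamide pachytene rat 15 (16.1). For miR-106b-3p these were only saline pachytene rat 25 (14.8) and cyclophosphamide pachytene rat 7 (14.6). Both endothelial miRNAs listed were tested, with summed signals of 70.4 to 285.4 in saline and 83.3 to 196.0 in cyclophosphamide pachytene spermatocytes, and of 53.6 to 118.0 and 48.0 to 77.6 in round spermatids. Their part in the spread of miR-150-5p was not tested.

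For miR-150-3p, the passenger arm of the same hairpin, the pachytene arrays lay close together, at 19.0, 21.8, 22.4, 26.8 and 27.5 with saline and 24.6, 26.4, 29.1, 29.8 and 31.0 with cyclophosphamide. Spermatid arrays read 8.46, 10.5, 13.0, 23.7 and 27.8 with saline and 12.3, 17.4, 24.2, 25.4 and 33.1 with cyclophosphamide. The low spermatid arrays were those of slide 3: its 3 saline arrays read 8.46 to 13.0 and its cyclophosphamide array 12.3, whereas the 6 other spermatid arrays read 17.4 to 33.1. The pachytene log2 means were 4.54 ± 0.22 and 4.81 ± 0.14, and the spermatid means 4.06 ± 0.58 and 4.41 ± 0.55, saline before cyclophosphamide (SD, n = 5).

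The difference of miR-150-3p between cell types was -0.48 ± 0.25 in saline (limma adjusted p = 0.116) and -0.40 ± 0.25 in cyclophosphamide (limma adjusted p = 0.190). With the slide as a block the saline difference was 0.11 ± 0.16 and the cyclophosphamide difference -0.23 ± 0.14, and without slide 3 they were 0.14 ± 0.20 and -0.20 ± 0.16. The sign of the saline difference thus turned when slide 3 was accounted for or left out. It also turned with the dimmer second probe, whose group means lay near the floor, at 3.71 for saline and 4.01 for cyclophosphamide pachytene arrays, then 3.74 and 3.81 for the spermatid arrays. That probe differed by 0.04 ± 0.12 between cell types in saline (limma adjusted p = 0.833) and by -0.19 ± 0.12 in cyclophosphamide (limma adjusted p = 0.184). In the other direction, it passed the threshold with the 75th percentile over all probes (-0.66, limma adjusted p = 0.0135), with no scaling (-1.01, limma adjusted p = 0.00340), with quantile normalization (-0.56, limma adjusted p = 0.0497) and without saline spermatid rat 16 (-0.67, limma adjusted p = 0.0262). Within slide 2 the cyclophosphamide difference was -0.70 ± 0.23 (limma adjusted p = 0.0444), resting on spermatid rat 25 alone.

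The 2 arms of miR-150 did not follow each other closely, with r = 0.23 over the 20 arrays and 0.27 within groups. miR-150-3p was instead most like miR-874-3p (r = 0.94), miR-188-5p (0.93) and miR-328a-5p (0.93), and these stayed at 0.92, 0.95 and 0.91 within groups. miR-874-3p was likewise low on the slide 3 arrays, at 3.57 to 7.60, and stood at 15.8 to 27.4 on the other 16 arrays.

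**Figure D3:**
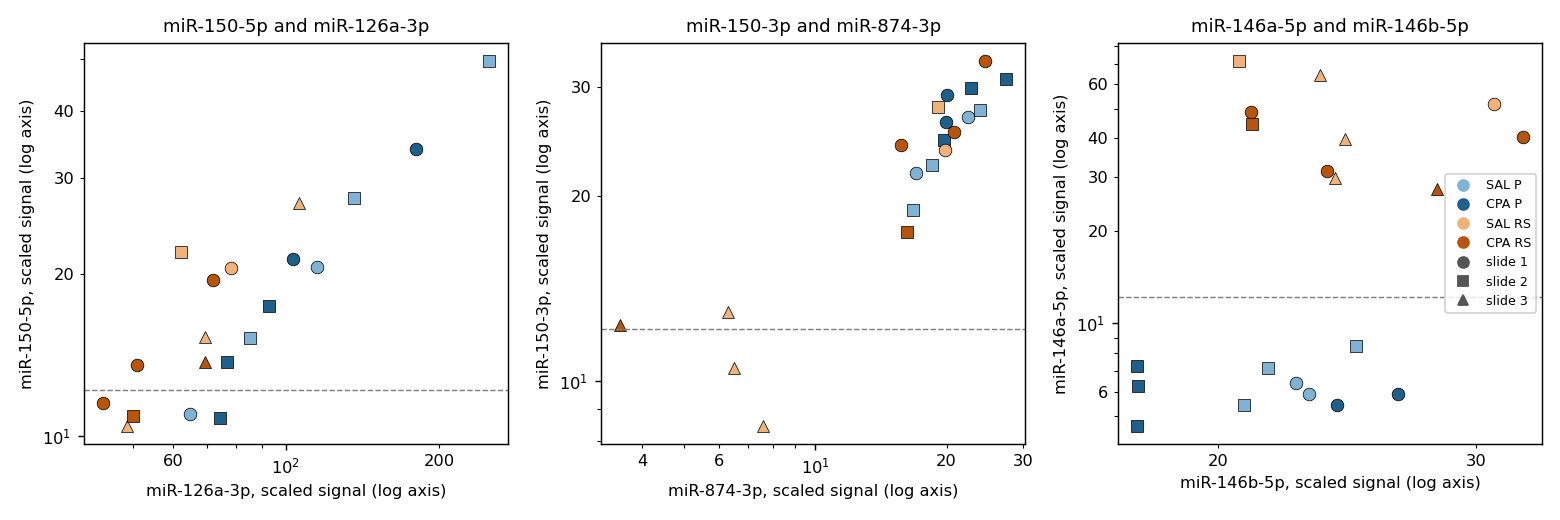
Scaled signals of 3 members against another miRNA on each of 20 arrays, both axes on a log scale, coloured by group (SAL saline, CPA cyclophosphamide, P pachytene spermatocytes, RS round spermatids) and marked by slide, with the floor dashed. miR-150-5p rises with miR-126a-3p within each cell type. At like miR-126a-3p signals most spermatid arrays read more miR-150-5p than pachytene arrays. miR-150-3p and miR-874-3p are both low on the 4 slide 3 arrays, and miR-146a-5p separates the cell types where miR-146b-5p overlaps.

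The members that were higher in round spermatids kept other company. miR-223-3p was most like miR-27b-3p, miR-10b-5p and miR-7a-5p (r = 0.94 each over 20 arrays), but within groups these correlations were 0.02, 0.14 and -0.37, so the likeness lay in the cell types and not in single arrays. miR-146a-5p was most like miR-26a-5p (r = 0.96), miR-195-5p (0.95) and miR-199a-3p (0.95), with 0.63, 0.50 and 0.70 within groups. Its pachytene arrays were all at the floor, so that its values within groups rest on how the spermatid arrays vary. miR-142-3p was most like miR-19b-3p (0.79), miR-29a-3p (0.78) and miR-15b-5p (0.78), with 0.57, 0.52 and 0.52 within groups. miR-223-3p and miR-146a-5p correlated at 0.95 over all arrays and at 0.28 within groups, the latter with the same limit.

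These companions all passed the test between cell types in the same direction. That follows largely from how they were picked, by correlation over arrays of both cell types, and is no separate support. In saline the difference was 1.30 ± 0.13 for miR-27b-3p, 1.55 ± 0.16 for miR-10b-5p, 2.97 ± 0.21 for miR-7a-5p, 0.75 ± 0.09 for miR-26a-5p, 1.52 ± 0.15 for miR-195-5p and 1.83 ± 0.27 for miR-199a-3p. It was smaller for those of miR-142-3p, at 0.41 ± 0.14 for miR-19b-3p (limma adjusted p = 0.0184), 0.50 ± 0.10 for miR-29a-3p and 0.61 ± 0.17 for miR-15b-5p. miR-199a-3p is typical of fibroblasts and other mesenchymal cells.

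**Figure D4:**
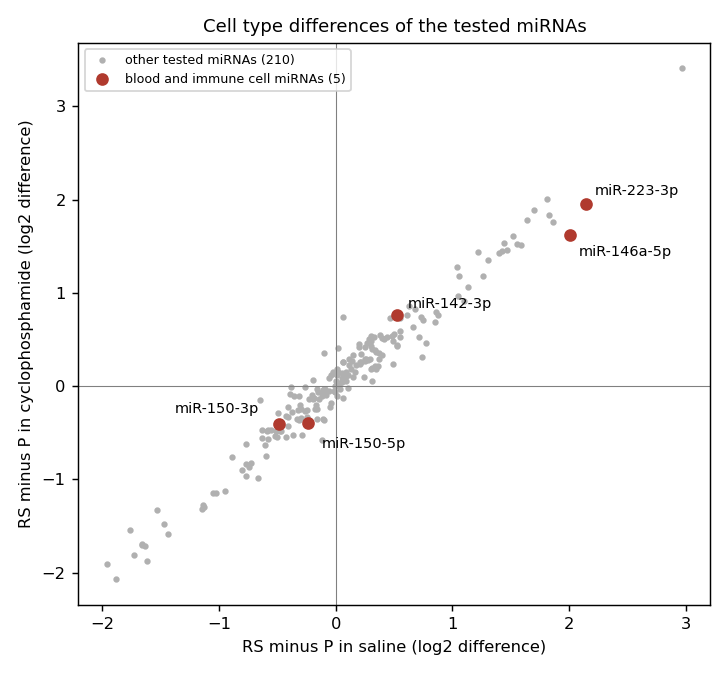
Round spermatid minus pachytene spermatocyte log2 difference of each of the 215 tested miRNAs in saline (horizontal axis) and in cyclophosphamide (vertical axis), with the 5 members in red. miR-223-3p and miR-146a-5p lie near the upper right end at 2.15 and 2.01 in saline, miR-142-3p nearer the middle, and both miR-150 arms just below 0.

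Other lists of miRNAs typical of cell types were read beside the members. Of 9 further blood and immune miRNAs, 7 were on the array and 2 were tested, miR-146b-5p (above) and miR-342-3p, abundant in lymphocytes and monocytes, and neither passed in any comparison. miR-342-3p differed between cell types by 0.03 ± 0.11 in saline (limma adjusted p = 0.860) and 0.02 ± 0.11 in cyclophosphamide (limma adjusted p = 0.889). miR-223-5p, miR-146a-3p, miR-146b-3p and miR-342-5p were detected on no array. The summed signal of the 2 tested ones was 39.4 to 48.9 and 37.3 to 48.9 over the pachytene arrays, then 42.2 to 53.8 and 39.1 to 58.3 over the spermatid arrays, saline before cyclophosphamide. The members' own sum was 112.8 to 141.7 and 97.1 to 143.1 over the pachytene arrays, then 184.5 to 267.2 and 188.3 to 252.2 over the spermatid arrays.

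Red blood cell miRNAs were near background. miR-451-5p, the most abundant miRNA of mature red cells, was detected on 1 of the 20 arrays, saline spermatid rat 25, at a scaled signal of 8.60, and both arms of miR-144 on none, so that 0 of the 3 on the array were tested.

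Mesenchymal and muscle miRNAs moved in the direction of miR-223-3p and miR-146a-5p. All 5 tested of 8 listed were higher in round spermatids in both treatments, beside 26% of all tested miRNAs in saline and 30.2% in cyclophosphamide. Their median differences were 1.81 and 1.78. Their summed signal was 589.0 to 1218 with saline and 457.5 to 847.7 with cyclophosphamide in pachytene spermatocytes, and 2309 to 3521 and 1898 to 3737 in round spermatids. Most of this sum was miR-143-3p, which read 498.2 to 1070 over the saline pachytene and 1991 to 2957 over the saline spermatid arrays. The brightest, miR-143-3p of smooth muscle and fibroblasts, differed by 1.81 ± 0.23 in saline (limma adjusted p = 2.06e-06) and 2.0 ± 0.23 in cyclophosphamide (limma adjusted p = 4.99e-07). The muscle miRNAs miR-1-3p and miR-133a-3p were each detected on 2 arrays and miR-145-3p on none. The part of other cell types in the spermatid fraction in the differences of miR-223-3p, miR-142-3p and miR-146a-5p was not tested.

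For the lists that follow, the shares of all tested miRNAs were 26% higher and 21.9% lower in saline, and 30.2% and 23.3% in cyclophosphamide. Of the 2 endothelial miRNAs, 0 passed in saline and 1 was lower in round spermatids in cyclophosphamide. miR-126a-3p differed by -0.73 ± 0.31 in saline (limma adjusted p = 0.0603) and by -0.83 ± 0.31 in cyclophosphamide (limma adjusted p = 0.0321). miR-126a-5p differed by -0.39 ± 0.20 (limma adjusted p = 0.116) and -0.08 ± 0.20 (limma adjusted p = 0.754). The germ cell miRNAs were bright in every group. Of 6 listed, 5 were tested, with summed signals between 15564 and 35545 over all arrays, and 1 was higher in round spermatids in saline and 2 in cyclophosphamide. The brightest, miR-34b-5p of meiotic and later germ cells, differed by 0.63 ± 0.19 (limma adjusted p = 0.0103) and 0.85 ± 0.19 (limma adjusted p = 0.000897). Of the spermatogonial list all 3 tested were lower in round spermatids in saline and 2 in cyclophosphamide, where the brightest, miR-21-5p, differed by -0.20 ± 0.07 (limma adjusted p = 0.0155) and -0.09 ± 0.07 (limma adjusted p = 0.249). Of the Sertoli and gonadal list 1 of 3 tested was higher and 1 lower in each treatment, and its brightest, miR-212-3p, differed by 0.02 ± 0.26 in saline (limma adjusted p = 0.960).

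No member changed with cyclophosphamide at the adjusted threshold. In pachytene spermatocytes 0 of the 5 members passed, beside 0% of the 215 tested miRNAs, and 1 tested miRNA had an unadjusted p under 0.05. In round spermatids 0 members passed, beside 0%, and 4 tested miRNAs had an unadjusted p under 0.05, none of them a member. The test of the difference between the 2 drug effects called 0 members, beside 0%, with 1 tested miRNA at an unadjusted p under 0.05 (all limma). The unadjusted counts moved with single arrays and with the groups in the fit. In round spermatids the count was 16, 23 and 2 without saline rat 15, 16 and 25, and 7, 10 and 20 without cyclophosphamide rat 16, 25 and 26, and array weights gave 25. In pachytene spermatocytes it was 5 without saline rat 16, 1 to 3 without any other array, and 30 with array weights. With only the groups compared in the fit, it was 15 of 200 miRNAs in pachytene spermatocytes and 2 of 206 in round spermatids. The adjusted counts stayed at 0 in each of these fits. They do not show that the levels were equal, and the intervals below give the sizes that remain possible.

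In pachytene spermatocytes the cyclophosphamide minus saline difference was -0.01 for miR-223-3p, with a 95% interval of -0.34 to 0.32. It was -0.22 (-0.68 to 0.24) for miR-142-3p, 0.27 (-0.25 to 0.80) for miR-150-3p and -0.26 (-0.96 to 0.44) for miR-150-5p. For miR-146a-5p both groups were at the floor, and no order can be read. Leaving out 1 array turned the sign for miR-223-3p, which ran from -0.10 to 0.11, and for miR-150-5p, from -0.48 to 0.03, the latter without saline rat 25. The second probe of miR-150-3p gave 0.30 ± 0.12 (unadjusted p = 0.0209, limma adjusted p = 1). The interval of miR-223-3p is the narrowest of these and that of miR-150-5p the widest. That of miR-150-3p rests on a spread shared with the spermatid arrays. Their SDs were 0.58 with saline and 0.55 with cyclophosphamide, against 0.22 and 0.14 in pachytene spermatocytes, so it is wide for the pachytene arrays. The pachytene difference of miR-150-3p was above 0 under all 30 alternatives, from 0.11 to 0.48, and was called under none.

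In round spermatids the difference was -0.20 (95% interval -0.53 to 0.13) for miR-223-3p, 0.01 (-0.45 to 0.48) for miR-142-3p, -0.41 (-1.11 to 0.28) for miR-150-5p and 0.36 (-0.17 to 0.88) for miR-150-3p. The last was 0.07 ± 0.12 with the second probe and turned to -0.07 ± 0.15 with the slide as a block, and slide 3, where its spermatid signals were low, holds 3 saline arrays and 1 cyclophosphamide array. For miR-146a-5p it was -0.38 (-0.78 to 0.01), with an unadjusted p of 0.0570 and an adjusted p of 0.816 by limma. Its pachytene arrays, all at the floor, lower the shared estimate of the spread in this fit. The interval and p are therefore too small for spermatid SDs of 0.52 with saline and 0.35 with cyclophosphamide. With the slide as a block the difference of miR-146a-5p was -0.59 ± 0.17 (limma adjusted p = 0.700), an error with the same limit. It was below 0 under every alternative that gave a value, between -0.69 (within slide 2, with 1 array a treatment and no test) and -0.13. The same held in round spermatids for miR-223-3p (-0.30 to -0.02) and miR-150-5p (-0.85 to -0.14), whereas miR-142-3p and miR-150-3p took both signs. The differences between the 2 drug effects ranged from -0.19 for miR-223-3p to 0.23 for miR-142-3p, each with a limma adjusted p of 0.993, and none could be read for miR-146a-5p, whose pachytene arrays were at the floor.

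By group the order of levels was therefore alike for miR-223-3p, miR-142-3p and miR-146a-5p. Both spermatid groups stood above both pachytene groups, and the arrays of the treatments overlapped within a cell type. The step between saline pachytene and saline spermatid arrays of miR-142-3p, with a 95% interval of 0.06 to 0.99, missed the adjusted threshold. For miR-150-5p the order of means ran from saline pachytene through saline spermatid and cyclophosphamide pachytene to cyclophosphamide spermatid, and the arrays of neighbours in it overlapped. Saline pachytene was no longer first without rat 25. For miR-150-3p both pachytene groups stood above both spermatid groups, again with the arrays of neighbours overlapping. With its second probe, however, saline pachytene was the lowest of the 4 groups. Neighbours that differ in both cell type and treatment were not tested for either arm.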

How the data were processed

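miRNAs were measured in 20 samples on one-colour Cy3 arrays, from 100 ng of total RNA each per the labels' protocols, after extraction with TRIzol and RNeasy. The deposited scanner files hold background-subtracted intensity values on a linear scale, with detection flags, and the submitters' processing notes name Agilent Feature Extraction 11.5.1.1 as the software. The deposited value table holds log2 values made by the authors, centred per miRNA, and its column medians range from -0.12 to 0.40. How it was normalized is not given in the sources used here. It holds 1 member by name, miR-142-3p (r = 0.96 with the scanner values), and served as an alternative. The processed signal of cyclophosphamide spermatid rat 14 is rounded in its file.

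Each array's signals were scaled to its 75th percentile, taken over the 2176 spots well above background on all arrays, brought back to the geometric mean of these percentiles, averaged over the 10 spots of a probe without outlier spots, floored and taken to log2. Each member has 2 probes, and the brighter stood for it. The filter kept every miRNA that some group showed on each of its arrays, which gave 217. Of these, 2 were at the floor on every array, have no spread and were left out after the data were seen, which left 215. Groups were compared in 1 limma 3.58.1 model (R 4.3.3) with 16 residual degrees of freedom, with Benjamini-Hochberg adjusted p-values. A row with no residual spread in a fit got a value and no test. The procedure was tested on simulated data.

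In cyclophosphamide pachytene spermatocytes 2 samples carry the rat number 16 and are told apart by year in the labels. Equal rat numbers in the 2 cell types of a treatment are not stated to mean the same animal, and the p-values measure the spread between arrays, which may in part be technical. The members and lists were chosen with earlier results of these data known. Named beside the members are the 3 miRNAs most like each over 20 arrays, every tested miRNA of the other blood and red cell lists, and the brightest tested miRNA of each other list; miR-142-5p, the untested markers and the second probes were added after their values were seen. miR-155 and miR-486 were not analysed here. No coordinates are given, since the sequence table is of another build than the array design. Alternatives covered scaling, background, floor, filter, probe choice, slide, scan day, array weights, replicate block and each array left out. A fit of only the groups compared was another. Figures were drawn with Python 3.11.15.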

Additional observations from a re-analysis of the deposited data

Results flagged for a closer look

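The log2 signal of miR-150-5p in cyclophosphamide round spermatids was 4.28 on the array of rat 16, while the other 4 arrays lay between 3.61 and 3.78, 2 of them at the floor. Dixon's ratio of its gap to the group's range was 0.746, above the limit of 0.71 for 5 arrays. The floor shortens that range, and on the log2 signals without it the ratio was 0.605, under the limit. Chance alone marks about 1 in 20 groups, and 18 groups of members were examined. On the same array miR-126a-3p read 71.8, the highest of its group.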

How the results depend on the processing

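miR-223-3p and miR-146a-5p stayed higher in round spermatids under every alternative that gave a value, and in saline they passed under each that gave a test, which for miR-146a-5p leaves out slide 2 alone; their saline differences ran from 1.17 to 2.46 and from 1.18 to 3.42. In cyclophosphamide both lost the call under normexp alone, at 0.53 (limma adjusted p = 0.347) and 0.42 (limma adjusted p = 0.639), as did miR-142-3p at 0.32. There 0 members were called, and the count of all miRNAs called fell to 39 from 115, and in saline to 30 from 103. The scanner files used here gave a median and no mean signal, so normexp used the median, and its offset of 50 lies near or above the signals of the dimmer members. Other counts that moved were 73 called in cyclophosphamide with no scaling and, within slide 1, 56 in saline, where 1 spermatid array is assumed to vary like the other groups, and 71 in cyclophosphamide. With array weights 4 members were called in saline, miR-142-3p (0.66) and miR-150-3p (-0.65) among them. Leaving out 1 array gave 2 to 4 members called in saline, the 4 without spermatid rat 16 (miR-142-3p 0.61, miR-150-3p -0.67); miR-142-3p also passed without pachytene rat 13 (0.65), 16 (0.59) or 26 (0.61).

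The saline call of miR-142-3p was also gained over miRNAs detected on all 20 arrays (limma adjusted p = 0.0492). Deviations of equal rat numbers correlated at -0.29 to 0.16, so the numbers are not shown to pair the cell types. With the replicate block within treatment miR-142-3p was 0.54 in saline (limma adjusted p = 0.0465), and with the number regardless of treatment 0.53 (limma adjusted p = 0.04997). miR-150-3p also passed in saline by total gene signal (-1.04) and in cyclophosphamide with the 75th percentile over all probes (-0.58) and no scaling (-0.74). With the 2 miRNAs at the floor kept in, 103 and 113 were called and miR-142-3p in saline had a limma adjusted p of 0.0633. Higher calls were 54.4% of calls in saline and 56.5% in cyclophosphamide; with the 75th percentile over all probes they were 32.1% and 33.6%, with no scaling 23.6% and 30.1%, with quantile normalization 43.0% and 46.3%, and by total gene signal 43.8% in saline. The saline median of all tested miRNAs shifted to -0.18 with all probes, -0.38 with no scaling and 0.44 with normexp, and the cyclophosphamide median to -0.07, -0.24 and -0.04. No drug comparison called a miRNA under any alternative in which calls were counted, which leaves out the deposited value table. The causes of these shifts were not tested. The signal of miR-146a-5p in pachytene spermatocytes and of miR-150-5p near background limits how finely either can be read.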
